A study of Mus musculus with 60 samples.

Results

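Dio2 and 4 genes of the thyroid hormone response, the receptor genes Thra and Thrb and the target genes Hr and Klf9, were followed through mouse hippocampus after 3 treatments. They are 5 of the 13986 genes that the 10 deposited tables hold between them, they were picked by gene symbol, and each of them is present in every table. Dio2 was taken up because it was called higher in all 6 Restraint and Swim tables, so its calls there describe how it was chosen and are not evidence. The tissue came from wild type C57BL/6 mice on postnatal day 105, collected 45 minutes after Handling, Restraint or Swim, or from Homecage mice, the controls. Whole, dorsal and ventral hippocampus were each sampled in the 4 conditions, which gives 12 groups of 5 libraries and 60 poly(A)-enriched RNA libraries in all. The series record speaks of 5 mice per condition, and the labels do not tie the dorsal library of a number to the ventral library of the same number.

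Thyroid hormone reaches the brain largely as thyroxine, a prohormone with low affinity for its nuclear receptors. The enzyme encoded by Dio2, made in brain mainly by astrocytes and by tanycytes of the third ventricle, removes an iodine from the outer ring and yields the active hormone triiodothyronine, while the enzyme encoded by Dio3 inactivates both. Triiodothyronine binds receptors encoded by Thra and Thrb, which sit on DNA with retinoid X receptors and exchange corepressors for coactivators when the hormone is bound. Hr, a nuclear corepressor, and Klf9, a zinc finger factor that also answers to glucocorticoids, are textbook direct targets of the hormone in brain.

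The tables hold comparisons that the authors had already made, with the mean count of each group, and no value of a single library was used here. No spread between libraries can therefore be set beside a level, and the replicate error enters only through the authors' p-values. The sum of the group means ran from 19.9M to 25.0M counts (M, mega), which is the mean depth of a library over the genes held. A gene is described as called where the authors' adjusted p is below 0.05. All 9 treatment comparisons are against Homecage, and the 3 of a region share its Homecage libraries, so they are not independent of one another.

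The sequence before the Dio2 start is shown because it holds a cyclic AMP response element (CRE), the binding motif of CREB family factors, and the one before Klf9 because it holds the core of that motif. Both are the 250 bases upstream of the RefSeq gene start on GRCm38.p6, 5′ to 3′ on the strand of the gene, with the motif in capitals. The Dio2 stretch is chr12:90739039-90739288 on the minus strand, and the Klf9 stretch is chr19:23140976-23141225 on the plus strand.
Dio2: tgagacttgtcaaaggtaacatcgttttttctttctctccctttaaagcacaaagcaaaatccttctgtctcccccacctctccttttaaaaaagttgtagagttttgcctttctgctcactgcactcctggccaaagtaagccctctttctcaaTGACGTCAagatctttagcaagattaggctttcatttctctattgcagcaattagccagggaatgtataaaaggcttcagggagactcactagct
Klf9: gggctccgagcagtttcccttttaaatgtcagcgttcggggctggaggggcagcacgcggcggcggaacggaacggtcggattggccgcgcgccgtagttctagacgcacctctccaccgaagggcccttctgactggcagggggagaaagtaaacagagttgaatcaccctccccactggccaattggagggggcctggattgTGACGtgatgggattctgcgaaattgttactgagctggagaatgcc

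In the Dio2 stretch the full element TGACGTCA lies 95 to 88 bases before the RefSeq start, and that start is itself 600 bases upstream of the start in the GENCODE M21 gene model. The Klf9 stretch holds only the 5-letter core TGACG, 46 to 42 bases before the start. The RefSeq table has entries for 3 of the 5 genes, Dio2, Thrb and Klf9, and the window of the first of 2 Thrb starts also holds TGACG, at 56 to 52 bases before it. Windows from 250 bases before to 50 after each start were searched on both strands, and every TGACGTCA also counts as a TGACG. Of 32851 such windows in the table, 588 (1.79%) hold TGACGTCA and 6837 (20.8%) hold TGACG. Counted by gene, over genes tested that have an entry, the shares were higher. They were 3.50% to 3.55% for TGACGTCA and 34.4% to 34.7% for TGACG, so the core is common. Exact matches to the classical thyroid hormone response element, AGGTCA repeated after 4 free bases, and to the glucocorticoid palindrome of AGAACA and TGTTCT were found in none of the windows of these genes, and in 5 and 3 of all windows. A match describes letters only, and binding was not measured.

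In the GENCODE M21 annotation of GRCm38, Dio2 spans chromosome 12, 90724552 to 90738438, on the minus strand. Thra spans chromosome 11, 98740638 to 98769006, and Thrb chromosome 14, 17660261 to 18038090, both on the plus strand. Hr lies on chromosome 14, 70552212 to 70573548, and Klf9 on chromosome 19, 23141226 to 23168134, also on the plus strand. The last exon bases of Thra overlap Nr1d1, a circadian repressor gene on the opposite strand (98767932 to 98775333), over 263 of the 4614 exon bases of Thra. Whether the authors counted by strand is not given in the sources used here, so reads from that overlap cannot be told apart.

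Levels were compared between genes per kilobase of exon, as CPM (counts relative to the total of the group, on the usual per-mega scale) computed from the authors' group means. In whole hippocampus of Homecage mice Thra stood at 168 CPM per kilobase, Klf9 at 28.2, Dio2 at 9.16, Thrb at 6.36 and Hr at 1.49. The order was the same in dorsal hippocampus, with 176, 30.0, 9.47, 5.55 and 2.87 CPM per kilobase. In ventral hippocampus it was again the same, with 171, 22.7, 8.49, 8.01 and 1.40 CPM per kilobase, and there Dio2 and Thrb were neighbours whose difference could not be tested. Thra was thus the abundant receptor transcript, and Hr the least abundant of the 5.

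Dio2 was higher after every treatment in every region. On the plain CPM scale, computed from the authors' means, whole hippocampus held 53.3 CPM in Homecage, 69.9 after Handling, 70.0 after Restraint and 70.5 after Swim. Dorsal hippocampus held 55.1, 67.4, 73.5 and 73.0 CPM in the same order, and ventral hippocampus 49.4, 61.1, 69.4 and 63.3. The 3 Homecage groups were the lowest 3 of the 12. The gap from Homecage to the lowest treated group of a region was larger than any gap among Homecage groups. For Restraint and Swim this order follows in part from how Dio2 was chosen. How many of all genes share it was not counted, and Homecage was also lowest for Errfi1, Klf2 and Klf4, described below. The highest level, in dorsal Restraint, was 1.49 times the lowest, in ventral Homecage. Relative to Homecage of the same region the CPM was higher by 31.2%, 31.5% and 32.3% in whole hippocampus, by 22.3%, 33.5% and 32.4% in dorsal, and by 23.7%, 40.6% and 28.3% in ventral, for Handling, Restraint and Swim. In bulk tissue a change in the number of cells of a type and a change in RNA per cell cannot be told apart.

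**Figure D1:**
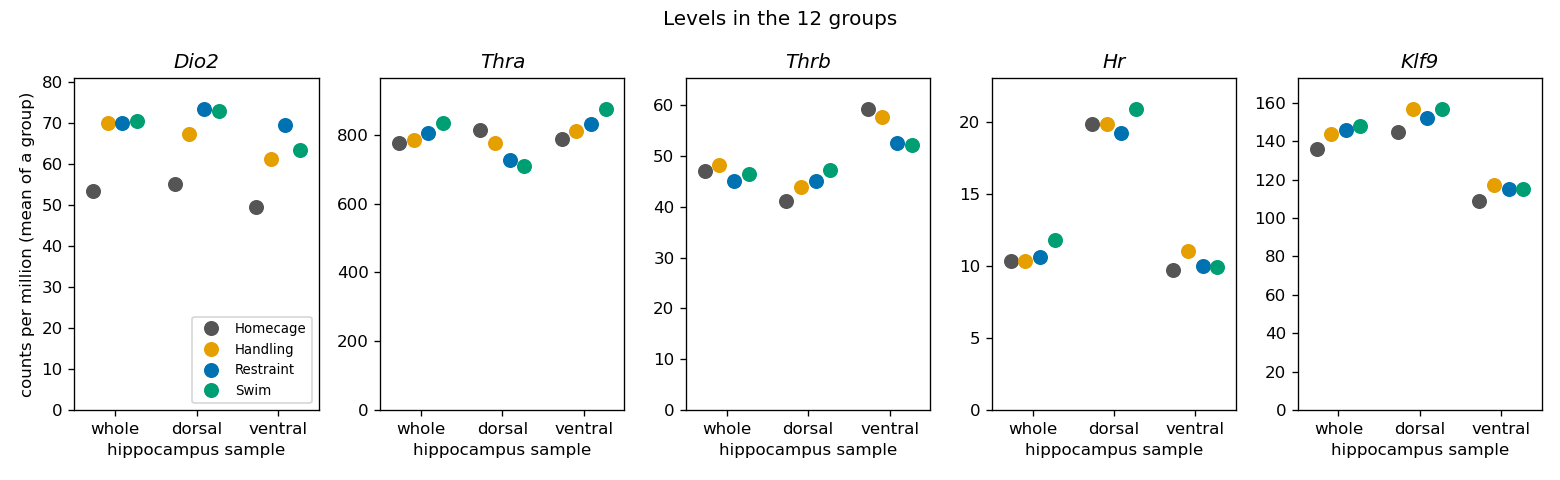
Levels of the 5 genes in the 12 groups, as CPM computed from the authors' group means, with the 3 tissue samples on the horizontal axis and 1 point per group coloured by condition. No error is drawn because values of single libraries were not used. The grey Homecage points of Dio2 (53.3, 55.1 and 49.4) lie below all treated points, while Hr and Klf9 separate dorsal from ventral hippocampus.

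The authors' deposited tables give the mean counts of Dio2 before their scaling. In whole hippocampus the authors' deposited tables record 1106 in Homecage, 1391 after Handling, 1431 after Restraint and 1505 after Swim. In dorsal hippocampus the authors' deposited tables have 1287, 1627, 1693 and 1768, and in ventral hippocampus 1234, 1479, 1727 and 1554. Every treated mean exceeded the Homecage mean of its region.

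After Handling the log2 fold change of Dio2 in the authors' deposited table for whole hippocampus was 0.41 (implied standard error 0.103, adjusted p 0.0283). It was 1 of 54 genes called there, 0.395% of the table, and the other 4 members were not called. The implied standard error is the fold change divided by the normal quantile of the authors' p. In dorsal hippocampus the authors' deposited table puts Dio2 at 0.28 after Handling (adjusted p 0.247) and in ventral at 0.29 (adjusted p 0.159), neither of them called, in tables where 0.125% and 0.856% of genes were called and no member was. The whole-tissue call ended after a correction for transcript GC content (a smooth trend of the log2 values on GC was taken off, called GC subtraction from here), with 0.39 and an adjusted p of 0.052.

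Restraint gave the highest value of Dio2, in ventral hippocampus. The authors' deposited tables put the log2 fold change at 0.39 in whole (adjusted p 2.41e-06), 0.43 in dorsal (adjusted p 5.09e-05) and 0.50 in ventral hippocampus (adjusted p 6.48e-09), which are folds of 1.31, 1.34 and 1.42. The tables called 0.541%, 0.616% and 2.39% of all genes, and Dio2 was the only one of the 5 members among them in each. After Swim the authors' deposited tables give 0.41 in whole (adjusted p 5.83e-04), 0.41 in dorsal (adjusted p 1.27e-04) and 0.36 in ventral hippocampus (adjusted p 2.00e-04), with 0.395%, 0.447% and 6.94% of genes called. Again no other member was called. Since these 6 calls chose the gene, the background shares are given for scale and nothing is read from them.

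Dio2 was a moderate riser among the genes that moved. By the p in the authors' deposited tables it ranked 33rd, 33rd and 30th among genes higher in whole hippocampus for Handling, Restraint and Swim, 32nd, 19th and 15th in dorsal, and 161st, 26th and 52nd in ventral. Its log2 fold change stood between the 96.5th percentile of all genes, in ventral Handling, and the 99.4th, in whole Handling. The range over the 9 tables was narrow, 0.28 to 0.50 with a median of 0.41, against medians of all genes that lay within 0.007 of 0.

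**Figure D2:**
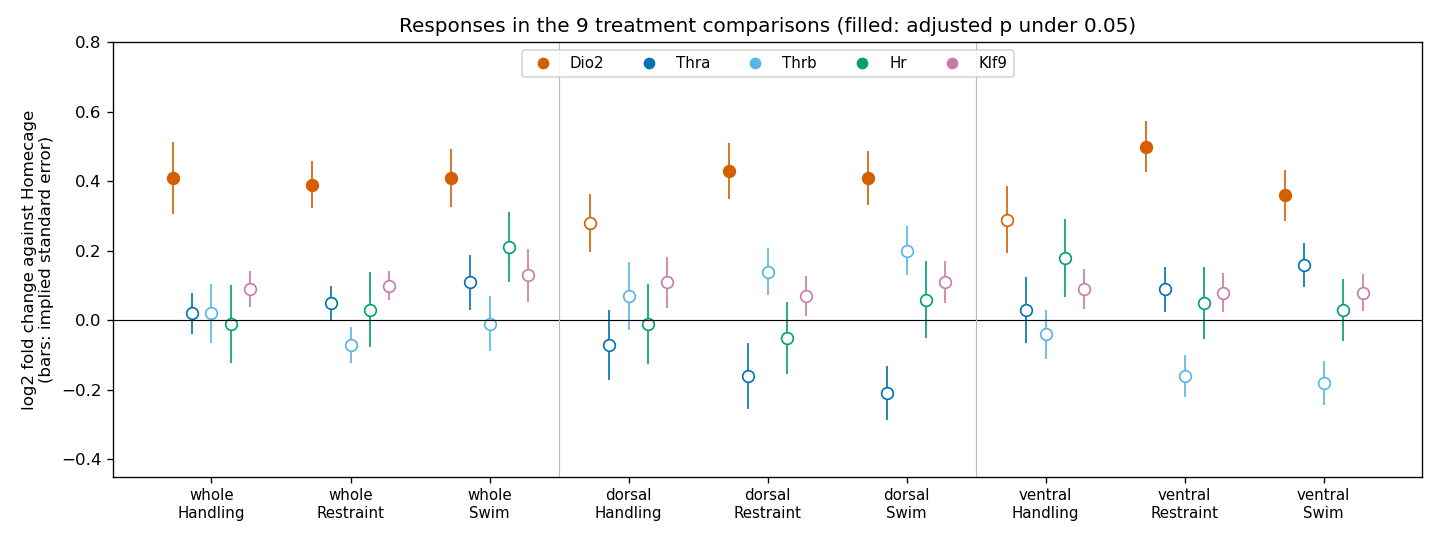
Log2 fold change of the 5 genes against Homecage in the 9 treatment tables, as the authors deposited it, with the region and treatment on the horizontal axis. Bars are implied standard errors, and filled points have an adjusted p under 0.05. The filled points are all Dio2, at 0.36 to 0.50, and the other 4 genes lie between -0.21 and 0.21.

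The response of Dio2 was compared between ventral and dorsal hippocampus as the difference of the 2 deposited log2 fold changes. This difference was 0.01 for Handling (standard error 0.13, 95% interval -0.24 to 0.26), 0.07 for Restraint (0.11, -0.14 to 0.29) and -0.05 for Swim (0.11, -0.26 to 0.16). With Benjamini-Hochberg adjustment over 13500 to 13533 genes the adjusted p was 0.998, 0.850 and 0.818, so a difference was not detected, and the intervals leave room for one of up to 0.29 on the log2 scale. For scale, 0.0889%, 1.98% and 10.2% of genes passed this test for Handling, Restraint and Swim. The errors and intervals take the ventral and dorsal responses as independent, which could not be checked.

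Dio2 is a gene of astrocytes and tanycytes, and markers of these cells were read beside it. All 10 astrocyte markers were held, and their summed level in Homecage was 5052 CPM in whole, 5522 in dorsal and 5707 in ventral hippocampus. Their median log2 fold change lay between -0.02 and 0.15 over the 9 treatment tables, and 1 marker in 1 table was called (Gjb6, a gap junction gene, 0.26 in whole Restraint in the authors' deposited table). All 10 lay above 0 in whole Swim (median 0.15, highest 0.40), and 9 did in dorsal Handling and in dorsal Restraint. In ventral hippocampus 5, 4 and 5 lay above 0 after Handling, Restraint and Swim. For Gfap, the intermediate filament of astrocytes, the authors' deposited tables give 0.03 to 0.24 with no call. Tanycyte and ependymal markers, 7 of 8 held and summing to 24.6 to 54.1 CPM in Homecage, had medians of -0.08 to 0.34 and no call, and Rax, a defining tanycyte gene, was in none of the tables.

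Choroid plexus transcripts varied between groups by the widest margins among the marker lists. Of 13 markers, 6 to 13 were held per table, with median log2 fold changes of 0.25 to 0.80 in 7 of the treatment tables, 2.69 in dorsal Restraint and 3.70 in ventral Handling. Their summed level went from 83.4 to 1378 CPM in dorsal Restraint and from 62.8 to 1353 in ventral Handling, with 4 of 8 and 13 of 13 held markers called. Markers that are low elsewhere entered a table only through the group where they were high, so these counts and medians do not describe the whole list. The 6 markers held in every table had medians of 2.28 in dorsal Restraint and 2.55 in ventral Handling, and of 0.25 to 0.63 in the other treatment tables. Dio2 was at 0.43 in dorsal Restraint, beside 0.28 in dorsal Handling and 0.41 in dorsal Swim. In ventral hippocampus it was at 0.29 after Handling, 0.50 after Restraint and 0.36 after Swim. The choroid plexus sum went from 59.2 to 70.4 CPM in ventral Restraint. Other lists moved less. In ventral Restraint, where Dio2 was highest, the hippocampal neuron markers Prox1 and Zbtb20 were called higher. The values of that list ran from -0.40 to 0.29 with a median of 0.23, and 5 of 7 lay above 0. All 7 meningeal fibroblast markers lay below 0 without a call in ventral Restraint (median -0.24). All 8 oligodendrocyte markers lay above 0 without a call in whole Swim (median 0.25). Among 6 thalamus markers Slc17a6 was called higher in dorsal Swim, and Slc17a6 and Rora lower in ventral Swim. The part of these markers in the Dio2 values was not tested.

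**Figure D3:**
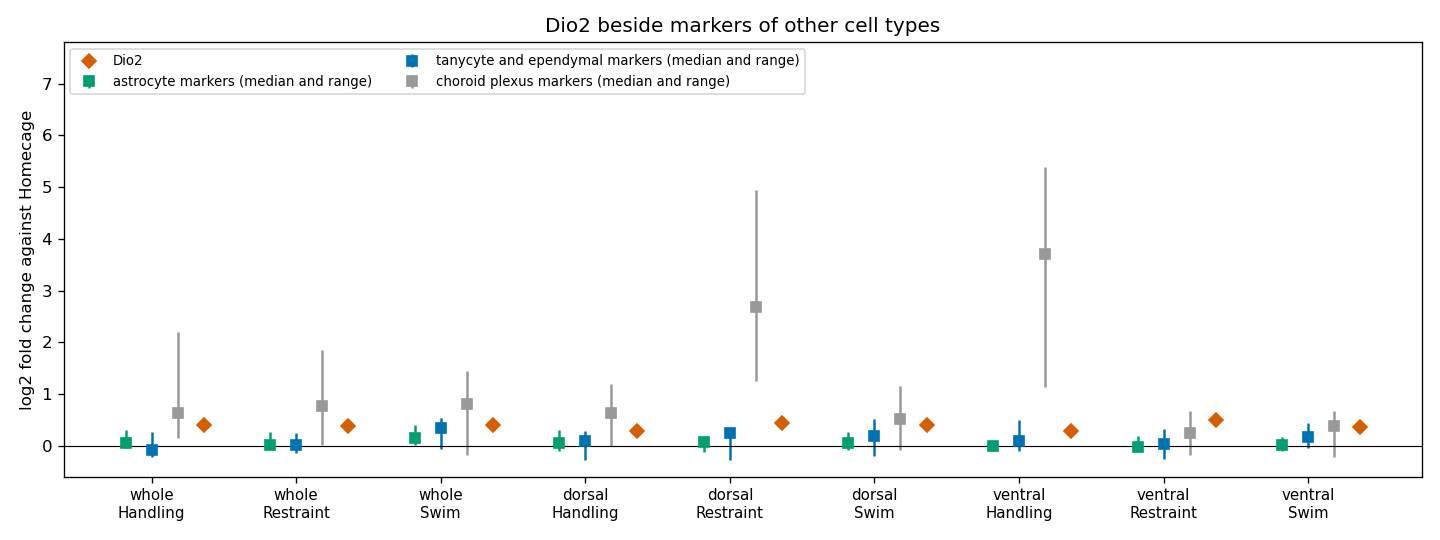
Log2 fold change of Dio2 (diamonds) in the 9 treatment tables beside the median (squares) and range (bars) of held astrocyte, tanycyte and ependymal, and choroid plexus markers. Astrocyte medians stay between -0.02 and 0.15, and choroid plexus medians reach 2.69 in dorsal Restraint and 3.70 in ventral Handling, where Dio2 is at 0.43 and 0.29.

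Of the receptor genes, Thra was called in no treatment table. The authors' deposited tables give mean counts of 16099, 15618, 16445 and 17805 in whole hippocampus for Homecage, Handling, Restraint and Swim. In dorsal hippocampus the authors' deposited tables give 18994, 18739, 16739 and 17215, and in ventral 19686, 19631, 20677 and 21486. Scaled to CPM, the dorsal level was highest in Homecage at 813 and lowest after Swim at 710, whereas the ventral level was lowest in Homecage at 788 and highest after Swim at 876. The log2 fold changes in the authors' deposited tables were 0.02, 0.05 and 0.11 in whole, -0.07, -0.16 and -0.21 in dorsal, and 0.03, 0.09 and 0.16 in ventral hippocampus, with the smallest adjusted p at 0.0932 in ventral Swim.

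Thrb was not called after any treatment either, and its values ran opposite to those of Thra in dorsal and ventral tissue. In whole hippocampus the authors' deposited tables give mean counts of 978.1 in Homecage, 957.6 after Handling, 918.4 after Restraint and 992.4 after Swim. The authors' deposited tables give 959.1, 1058, 1036 and 1143 in dorsal hippocampus, and 1482, 1394, 1308 and 1281 in ventral. The level went from 41.1 CPM in dorsal Homecage to 47.2 after Swim, and from 59.3 CPM in ventral Homecage to 52.2 after Swim. The log2 fold changes in the authors' deposited tables were 0.07, 0.14 and 0.20 in dorsal hippocampus and -0.04, -0.16 and -0.18 in ventral for Handling, Restraint and Swim, and 0.02, -0.07 and -0.01 in whole. The smallest adjusted p, in ventral Swim, was 0.0559. It was 0.0491 when the authors' scaling was replaced by group totals, and 0.652 after GC subtraction, with a log2 fold change of -0.13.

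For both receptor genes the Swim response differed between ventral and dorsal hippocampus by the test of the difference. It was 0.37 for Thra (standard error 0.10, adjusted p 0.00949) and -0.38 for Thrb (0.094, adjusted p 0.00418). For Restraint the difference was 0.25 for Thra (adjusted p 0.301) and -0.29 for Thrb (adjusted p 0.0543), and for Handling 0.10 and -0.11 (both 0.998). Transcript GC content moved with these values: it is 57.9% for Thra and 46.9% for Thrb, and across genes the Spearman correlation of fold change with GC content was -0.60 in dorsal Swim and 0.70 in ventral Swim. With that trend subtracted, the Swim difference was 0.11 for Thra (adjusted p 0.999) and -0.28 for Thrb (0.269), neither past the threshold, and the number of genes that pass went from 1383 to 27. Which step of the experiment produced the trend was not tested.

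Nr1d1, whose exons overlap Thra, had log2 fold changes of -0.04 to 0.14 over the 9 treatment comparisons in the authors' deposited tables and was called in none, with a smallest adjusted p of 0.57.

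Among the target genes, Hr showed no call after treatment. The authors' deposited tables give mean counts of 214.6, 204.2, 215.8 and 253.0 in whole hippocampus for Homecage, Handling, Restraint and Swim. In dorsal hippocampus the authors' deposited tables give 463.2, 476.8, 441.8 and 506.2, and in ventral 242.4, 267.6, 249.0 and 242.6. The dorsal groups, at 19.2 to 20.9 CPM, did not overlap with the whole groups (10.3 to 11.8 CPM) or the ventral groups (9.70 to 11.0 CPM). How many of all genes show such a split was not counted, and Itga7 and Rasd2, described below, show it too. Between dorsal and ventral Homecage tissue 38.4% of all genes were called. Log2 fold changes of Hr in the authors' deposited tables ran from -0.05 to 0.21, with a smallest adjusted p of 0.82.

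Klf9 lay slightly above Homecage in all 9 treatment comparisons without passing the test in any. How many of all genes share that direction was not counted, and Gfap and Gps2 also lay above Homecage in all 9. The comparisons of a region share its Homecage libraries. The authors' deposited tables give mean counts of 2824, 2869, 2979 and 3161 in whole hippocampus in the same order of conditions. The authors' deposited tables give 3378, 3797, 3509 and 3795 in dorsal, and 2732, 2823, 2864 and 2813 in ventral hippocampus. On the CPM scale Homecage was the lowest condition of every region, at 136, 145 and 109 CPM, against 144 to 148, 152 to 157 and 115 to 117 after treatment. Log2 fold changes in the authors' deposited tables ran from 0.07 to 0.13 and the smallest adjusted p was 0.39. For Hr and Klf9 the ventral minus dorsal differences of response lay between -0.04 and 0.19 and none passed the test.

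Klf9 belongs to a family of zinc finger factors in which other members moved after treatment. The treatment tables called between 0.125% and 6.94% of all genes. Of 13 other Klf genes held, calls in the treatment tables were made for 5, of which Klf4 was called higher in 6 tables and Klf2 in 4. Both are known for their induction in endothelium. Klf2 went from 71.4 to 225.0 mean counts in ventral Restraint in the authors' deposited table, a log2 fold change of 1.66 (adjusted p 2.23e-23), and Klf4 from 92.4 to 241.0, a change of 1.39 (adjusted p 2.60e-16). In whole Restraint the authors' deposited table gives 1.47 for Klf2 and 1.23 for Klf4, and in dorsal Restraint 1.20 and 1.08. The falls were Klf5 in ventral Restraint (-0.63, adjusted p 0.00882, in the authors' deposited table) and Klf6 in ventral Swim (-0.24, adjusted p 0.0113), and the latter was not called after GC subtraction. Klf15, a glucocorticoid target named here after its value was seen, was the other one called, higher in ventral Swim. Klf6 and Klf15 were called only in ventral Swim, the table with 6.94% of all genes called. The Klf calls there, 3 higher and 1 lower, came to 2 after GC subtraction.

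Ventral and dorsal hippocampus of Homecage mice differed in 4 of the 5 genes. In that comparison 38.4% of all genes were called, 18.4% higher and 20.0% lower in ventral tissue, so calls are common there. Hr was 2.10-fold higher in dorsal hippocampus, with 463.2 mean counts against 242.4 in the authors' deposited table (log2 -1.07, adjusted p 3.00e-20). Klf9 was 1.37-fold higher in dorsal tissue in the authors' deposited table (log2 -0.45, adjusted p 4.97e-11), and Thrb was 1.40-fold higher in ventral tissue (log2 0.49, adjusted p 1.51e-10). Both target genes were higher in dorsal tissue and Thrb was higher in ventral tissue, and a relation between them was not tested.

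For Dio2 the same authors' deposited table gives a log2 change of -0.20, lower in ventral hippocampus (adjusted p 0.0465), and under scaling by group totals this was -0.16 with an adjusted p of 0.12. Thra was not called, at -0.09 (adjusted p 0.408). After GC subtraction Hr was at -0.79 (adjusted p 1.9e-11), Klf9 at -0.47 (3.4e-12), Thrb at 0.44 (7.5e-09) and Dio2 at -0.28 (0.0037). Scaling by group totals changed the split of all calls from 47.9% to 58.7% higher in ventral tissue and shifted the median by 0.041.

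Cell type markers moved with region as well, beside 18.4% of all genes called higher and 20.0% called lower in ventral tissue. All 7 hippocampal neuron markers were lower in ventral tissue (median log2 -0.90), as were all 8 oligodendrocyte markers (median -0.59). Astrocyte markers had a median of 0.07, with Gfap lower and Aldh1l1 higher among the 10. Tanycyte and ependymal markers had a median of 0.35, with 2 of 7 called higher and a summed level of 24.6 CPM in dorsal and 54.1 in ventral tissue. Meningeal fibroblast markers were higher in 4 of 7 (median 0.61), thalamus markers were higher in 3 and lower in 1 of 6, and microglia markers were lower in 3 of 4. The part of these shifts in the values of Hr, Klf9, Thrb and Dio2 was not tested.

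**Figure D4:**
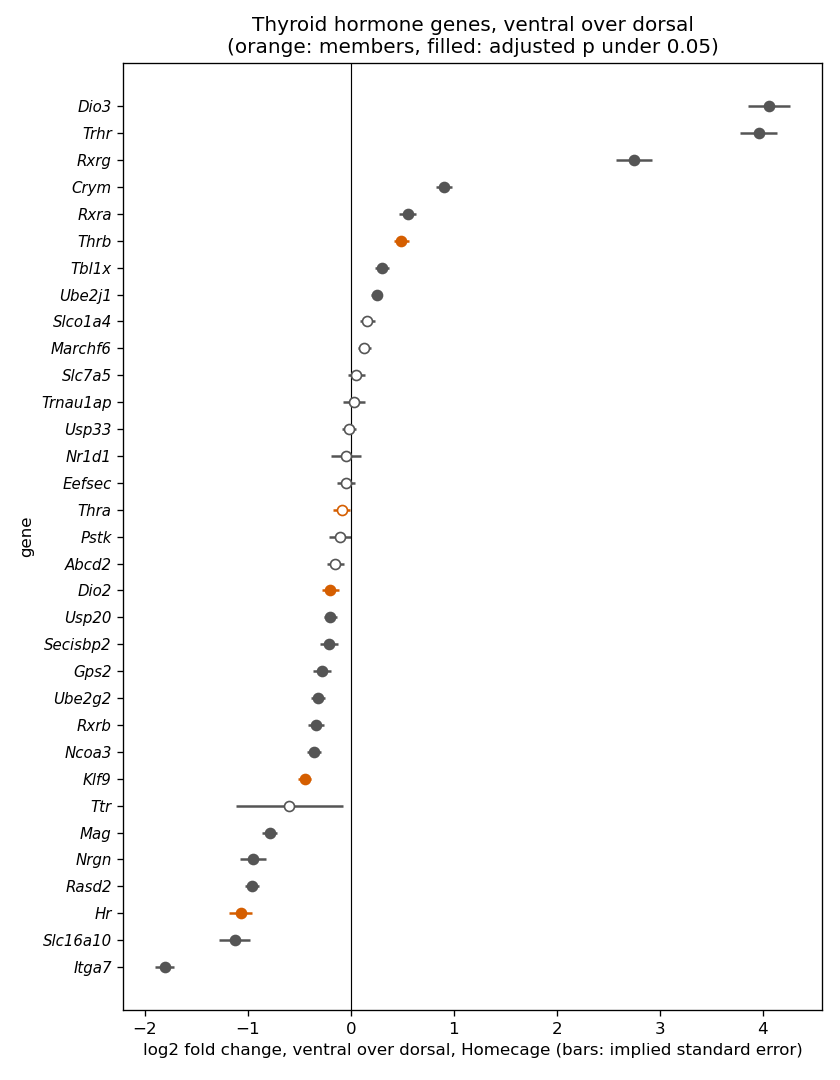
Log2 fold change of ventral over dorsal hippocampus in Homecage mice, as deposited by the authors, for the 5 genes (orange) and the pathway genes named in the text (grey), sorted by value. Bars are implied standard errors, and filled points have an adjusted p under 0.05. Dio3, Trhr and Rxrg lie at 4.06, 3.96 and 2.75, Thrb at 0.49, and Hr and Itga7 at -1.07 and -1.81.

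Around these genes, 58 genes of thyroid hormone transport, activation, receptor function and response were listed, of which 50 to 53 were held per table. None was called in whole Swim, dorsal Handling and dorsal Swim, 1 was higher in each of whole Handling, whole Restraint, dorsal Restraint and ventral Handling, 2 were higher in ventral Restraint, and 2 were higher and 1 lower in ventral Swim. The share called was 3.77% in ventral Restraint and 5.66% in ventral Swim, beside 2.39% and 6.94% of all genes. The 4 single calls were all Ttr. The list medians lay between -0.02 and 0.03, beside medians of all genes within 0.007 of 0. After GC subtraction the 5 calls in ventral Restraint and ventral Swim were lost and the 4 Ttr calls stayed. Scaling by group totals also ended the calls of Rasd2 and Mag in ventral Restraint (0.20 and 0.16) and of Gps2 in ventral Swim (0.19), with nearly the same sizes.

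Ttr encodes transthyretin, which carries thyroxine in blood and cerebrospinal fluid and is made in brain by choroid plexus. In the authors' deposited tables its mean count went from 690.0 to 28299 in ventral Handling (log2 5.39, adjusted p 4.58e-08) and from 946.8 to 28300 in dorsal Restraint (4.94, adjusted p 2.26e-04). It was also called at 2.20 in whole Handling and 1.86 in whole Restraint in the authors' deposited tables. The other choroid plexus markers were higher in the same groups, as given above. None of the other 7 transport and binding genes was called after treatment, Slco1c1, which carries thyroxine across membranes, among them. Between regions the authors' deposited table has Crym, which encodes a cytosolic triiodothyronine-binding protein, at 0.90 (2952 mean counts in dorsal and 6070 in ventral, adjusted p 9.35e-30), and the transporter gene Slc16a10 at -1.13 (131.4 and 65.4, adjusted p 1.04e-12). In all 2 of these 8 genes were higher and 1 lower in ventral tissue, where 18.4% of all genes were called higher and 20.0% lower. Nothing particular to these 8 is read from that count.

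Dio3, the inactivating counterpart of Dio2, was far higher in ventral tissue. The authors' deposited table gives 10.8 mean counts in dorsal and 202.0 in ventral Homecage hippocampus, a fold of 16.73 (log2 4.06, adjusted p 2.58e-83). After treatment Dio3 was not called, at -0.10, 0.15 and 0.33 in whole and -0.01, 0.22 and 0.25 in ventral hippocampus in the authors' deposited tables, and the dorsal treatment tables do not list it. Genes of selenoprotein synthesis, on which both enzymes depend, had no call after treatment, and Secisbp2 was lower in ventral tissue (-0.21, adjusted p 0.0429, in the authors' deposited table). Dio1 was in none of the tables.

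Genes that add ubiquitin to the DIO2 enzyme or remove it had 1 call after treatment. Of 7, only Ube2g2, a ubiquitin-conjugating enzyme of the endoplasmic reticulum, was called after treatment, at 0.21 in ventral Swim in the authors' deposited table (adjusted p 0.0188, and 0.16 with an adjusted p of 0.36 after GC subtraction). Between regions the authors' deposited table has Ube2g2 at -0.32 and the deubiquitinase gene Usp20 at -0.20, with Ube2j1 at 0.25.

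The 14 receptor partners and coregulators had 1 call after treatment, in ventral Swim, which was lost after GC subtraction. This was Gps2, a subunit of a corepressor complex, at 0.20 in the authors' deposited table (adjusted p 0.0439). Between regions 3 were higher and 5 lower in ventral tissue, beside 18.4% and 20.0% of all genes. Rxrg, a retinoid X receptor gene, went from 27.2 mean counts in dorsal to 201.0 in ventral hippocampus in the authors' deposited table, a fold of 6.75 (adjusted p 2.88e-52), and Rxra, another gene of that family, was higher at 0.55 (adjusted p 5.30e-10).

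Of 16 genes known to respond to thyroid hormone in brain, 3 were called after treatment, in ventral Restraint and ventral Swim, the tables with the highest background of calls (2.39% and 6.94%), and the calls were lost after GC subtraction (0.17, 0.12 and -0.10 for Rasd2, Mag and Abcd2). In the authors' deposited tables Rasd2, a striatal small GTPase gene, was at 0.21 (adjusted p 0.0401) and Mag, a myelin protein gene, at 0.17 (adjusted p 0.0442) in ventral Restraint, and Abcd2, a peroxisomal transporter gene, was at -0.21 (adjusted p 0.0218) in ventral Swim. Between regions 4 were higher and 9 lower in ventral tissue, with a median of -0.57, beside 18.4% and 20.0% of all genes called. The authors' deposited table has Itga7, an integrin gene, at -1.81 (1345 mean counts in dorsal and 421.0 in ventral, adjusted p 8.68e-87) and Rasd2 at -0.96 (adjusted p 2.67e-43). Several of the 9 are myelin genes, or, like Nrgn, were also counted as markers above.

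Of 5 genes of the hypothalamic and pituitary axis only Trhr, a receptor for thyrotropin-releasing hormone, was held. Its mean count was 19.4 in dorsal and 331.6 in ventral Homecage hippocampus in the authors' deposited table, a fold of 15.57 (adjusted p 5.75e-102). After treatment the authors' deposited tables give -0.32, -0.34 and -0.20 in ventral hippocampus and 0.03, 0.02 and 0.08 in whole for Handling, Restraint and Swim, and -0.11 and 0.13 in dorsal for Restraint and Swim, without a call.

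Of the 53 held of these 58 genes, 12 were higher (22.6%, beside 18.4% of all genes) and 18 lower (34.0%, beside 20.0%) in ventral hippocampus, against 16 and 16 under scaling by group totals and 15 and 15 after GC subtraction.

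The genes whose 9 treatment fold changes came nearest to those of Dio2 were Errfi1, Arid5a, Slc2a1, Fosl2 and Zfp189, out of 13393 candidates. Likeness was measured as the root mean square difference of the 9 log2 values, which was 0.058 for Errfi1, 0.113 for Arid5a, 0.125 for Slc2a1 and Fosl2 and 0.128 for Zfp189, with a median of 0.405 over all genes. The 9 comparisons are those described above, and the 3 of a region share Homecage libraries. Errfi1 encodes a feedback inhibitor of the EGF receptor, and the authors' deposited tables put it at 0.26 to 0.46, called in 8 of 9 tables. Slc2a1, the glucose transporter of the blood-brain barrier, ranged from 0.14 to 0.55 in the authors' deposited tables with 4 calls, and Fosl2, an AP-1 factor, from 0.23 to 0.38 with 7. When likeness was measured by Pearson correlation instead, none of the 5 nearest genes was among these.

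**Figure D5:**
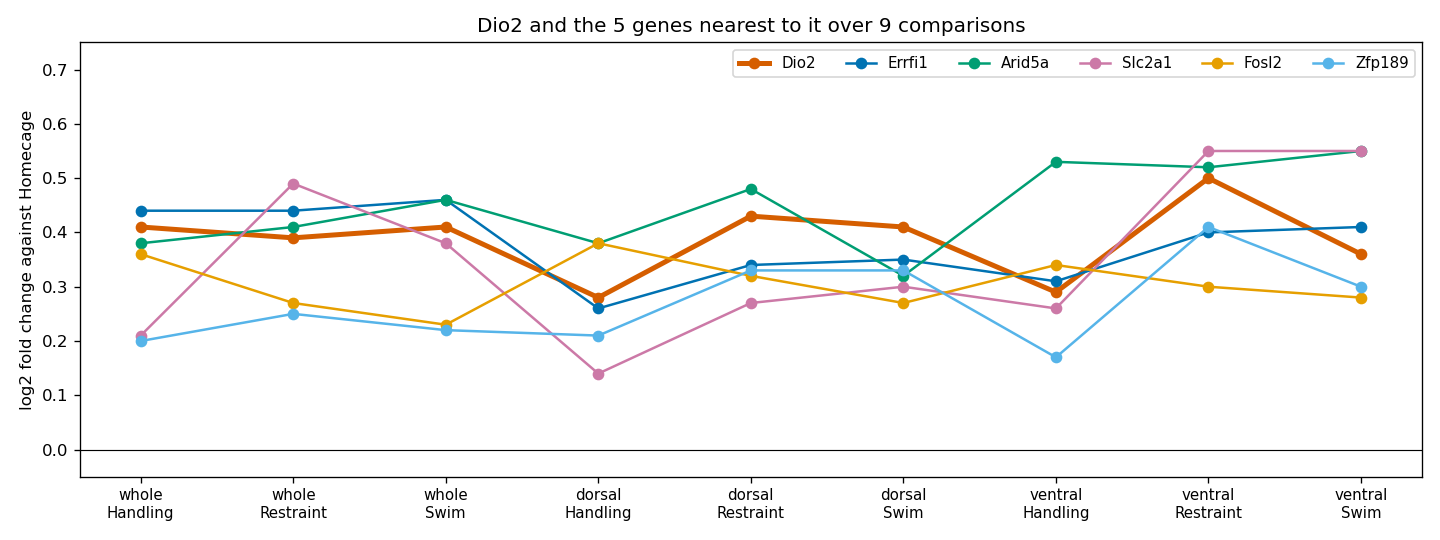
Log2 fold change against Homecage in the 9 treatment tables, as deposited, for Dio2 (thick line) and the 5 genes with the smallest root mean square difference from it. All 6 genes stay above 0 in all 9 tables, Dio2 between 0.28 and 0.50 and Errfi1 between 0.26 and 0.46.

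For Klf9 the 5 nearest were Slc35g2 (0.032), Imp4 (0.032), Slc25a25 (0.038), Pard3 (0.039) and Slc25a33 (0.040), against a median of 0.134 over all genes. None of them was called in a treatment table, so this nearness is among small values.

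The CRE of the Dio2 promoter was set beside the other genes called higher. Of 19 genes called higher in all 6 Restraint and Swim tables, 16 have an entry in the promoter table and 5 of these (31.2%) hold TGACGTCA: Arl4d, Dio2, Dusp1, Errfi1 and Maff, named here after this was seen. Among genes tested the share was 3.50% to 3.55%, depending on the table. Among genes called higher it was 11.1% (6 of 54) in whole Restraint and 18.4% (7 of 38) in whole Swim. It was 14.3% (6 of 42) in dorsal Restraint, 13.2% (5 of 38) in dorsal Swim, 5.84% (9 of 154) in ventral Restraint and 4.87% (24 of 493) in ventral Swim. After Handling, TGACGTCA was held by 4 of 40 genes called higher in whole, 1 of 12 in dorsal and 4 of 83 in ventral hippocampus. The glucocorticoid palindrome was held by 1 of the 16 genes (6.25%), and by 1 of the genes tested in each treatment table. The 6 calls that define the 19 genes also chose Dio2, so its place among the 5 is not evidence. The lists of genes called higher overlap, and all but those of dorsal and ventral Handling hold Dio2. These shares are a description, and no test was made of them.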

How the data were processed

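RNA of whole, dorsal and ventral hippocampus was sequenced in 60 poly(A)-enriched libraries, 5 for each of 12 groups, grouped here by the sample titles. Only comparison tables of the authors, 10 in number, were used. Per the file headers, the deposited tables hold mean estimated counts per group, a fold change (a ratio after scaling by the authors), its log2 value, a p-value and an adjusted p. The sources used here do not give the authors' test and scaling, their aligner or their counting program. Bowtie 0.12.2 and mm8 appear in the submitters' processing notes without a role. No pairing of libraries could be checked, since no column of a single library was used (0 columns). Nothing in the labels says more of the replicates than 5 mice per condition. Since the authors' test is not given, which spread the p-values measure cannot be stated.

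The members, gene lists and alternatives were chosen with earlier results of these data known. Repeated entries (144 to 148 per table) were dropped, which left 13610 to 13784 genes, with group totals of 19.9M to 25.0M counts (M, mega) and at least 22.0 counts summed over both means. A Benjamini-Hochberg adjustment over all entries gave the deposited adjusted p. Calls used an adjusted p under 0.05. CPM, also per kilobase of exon, were computed from the authors' means and GENCODE M21 exons. Ventral and dorsal responses were compared by the difference of log2 fold changes over the root of the summed squared implied errors, against a normal distribution, which is an approximation. It takes the ventral and dorsal responses as independent, and whether their libraries come from the same mice is not given. Alternatives were scaling by group totals, a threshold of 0.01, a mean of at least 100 counts, adjustment without repeated entries, errors from a t distribution with 8 degrees of freedom, median-of-ratios levels, correlation as likeness, and subtraction of the lowess trend (fraction 0.3) on transcript GC content, known for at least 99.76% of genes. For differences between regions the GC alternative was chosen after seeing the data.

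Named were the members; up to 4 genes of each list with the lowest adjusted p after treatment and up to 2 between regions; Nr1d1; the 5 genes nearest to Dio2 and to Klf9; and Ttr, Gfap and Aqp4 among markers. Other genes named were chosen after their values were seen. Some items are not reported here. Python 3.11.15, pandas 2.3.3, numpy 2.4.6, scipy 1.17.1, statsmodels 0.14.6 and matplotlib 3.10.9 were used.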

Additional observations from a re-analysis of the deposited data

Results flagged for a closer look

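Each result here is a difference between the ventral and the dorsal response to 1 treatment (ventral minus dorsal log2 fold change) that passed the test of the difference, adjusted over all genes by Benjamini-Hochberg. For Ttr it was 4.30 for Handling (adjusted p 0.0127) and -4.56 for Restraint (0.00752), and the other choroid plexus markers moved with it. Both passed under GC subtraction as well (0.0118 and 0.0466).

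The adjusted p of the others was above 0.05 after that subtraction, with sizes that moved to different degrees. For Restraint this was 0.55 for Nrgn (adjusted p 0.0411, and 0.32 in size after subtraction). For Swim the receptor genes differed by 0.37 (Thra) and -0.38 (Thrb), their partner Rxrb by 0.29 (-0.12 after subtraction, the opposite direction), and the transport and binding genes by -0.34 (Slco1a4) and 0.36 (Crym, also 0.36 after subtraction, with an adjusted p of 0.0903). The deubiquitinase gene Usp20 differed by 0.28, Klf6 by -0.43, and the astrocyte water channel gene Aqp4 by -0.33. Responsive genes differed by -0.33 (Abcd2), 0.27 (Rasd2) and 0.64 (Nrgn). After subtraction the sizes were 0.11 for Thra, -0.28 for Thrb, -0.09 for Slco1a4, 0.13 for Usp20, -0.29 for Klf6, -0.25 for Aqp4, -0.12 for Abcd2, 0.11 for Rasd2 and 0.31 for Nrgn. The adjusted p of the Swim differences as deposited lay between 0.00261 for Klf6 and 0.0493 for Rasd2. In each of these cases the dorsal and ventral values had opposite signs. The correlations of fold change with GC content also had opposite signs in the same tables. The part of GC content in these differences was not tested.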

How the results depend on the processing

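Of 250 alternatives for the members' 50 values, 237 kept direction and side of the threshold. Dio2 lost its call in whole Handling at a threshold of 0.01 and under GC subtraction (0.39), and its call between regions at 0.01 and under scaling by group totals (-0.16). Its 6 calls after Restraint and Swim, which chose the gene, held under the 5 alternatives run.

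At a threshold of 0.01 the number of genes called was 31 in whole Handling (54 at 0.05), 39 in dorsal Restraint (84), 34 in dorsal Swim (61), 71 in ventral Handling (118), 144 in ventral Restraint (329) and 263 in ventral Swim (955). GC subtraction left 111 in ventral Swim, and in dorsal Restraint it moved the share of higher calls from 61.9% to 75.4%. Errors from a t distribution gave 41, 851 and 2625 genes for ventral minus dorsal differences in Handling, Restraint and Swim. Otherwise the counts were 12, 267 and 1383. Errors derived in this way are smaller, and the difference was still set against a normal distribution. The larger counts are therefore not those of a t test. GC subtraction, chosen for the differences after seeing the data, gave 5 genes for Restraint and 27 for Swim.

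Values of the members and Nr1d1 with the sign reversed by GC subtraction, none of them called, were Thra in ventral Handling (-0.03) and between regions (0.09), Thrb in whole Swim (0.01), Hr in whole Handling (0.04), dorsal Handling (0.09), dorsal Restraint (0.14), ventral Restraint (-0.05) and ventral Swim (-0.17), and Nr1d1 in whole Restraint (-0.01), dorsal Restraint (0.06), ventral Handling (-0.01), ventral Swim (-0.03) and between regions (0.09). Among the members' ventral minus dorsal differences they were Thra and Hr for Handling (-0.03 and -0.01), Hr for Restraint (-0.19), and Dio2 and Klf9 for Swim (0.13 and 0.04). Scaling by group totals reversed Nr1d1 in dorsal Restraint (0.01) and between regions (0.00), and the Klf9 difference for Restraint (-0.00). The cause was not tested.

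No paired analysis was possible because no value of a single library was used, and leaving out each replicate was not run for the same reason. The tables hold no gene under 22.0 summed counts, which limits what can be said of Dio1, Rax and dorsal Dio3.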
